A study of Mus musculus with 6 samples.

Results

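Chemokine receptors are seven-pass membrane proteins through which leukocytes sense chemokines, the small secreted proteins that direct their movement. Classical receptors signal through inhibitory G proteins to the machinery of cell movement, are phosphorylated by receptor kinases and are then internalised with arrestins, while RGS proteins shorten the G protein signal. Atypical receptors bind a ligand without this signalling. Macrophages and monocytes use several of these receptors to reach inflamed tissue, and other members guide lymphocytes and dendritic cells within lymphoid organs.

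The 8 receptor genes described here were Ccr1, Ccr2, Ccr3, Ccr7, Ccrl2, Cxcr4, Cxcr5 and Cx3cr1. Their probes were found by the gene symbol in the platform's annotation, which gave 14 of 16281 probes. The cells were RAW 264.7, an established mouse macrophage line, cultured for 48 h with lipopolysaccharide (LPS, 100 ng/ml, from the outer membrane of Gram-negative bacteria) and LPS-binding protein (LBP, 100 pM, which hands LPS to its receptors), or for 48 h without treatment. No other genotype or agent is named, and parts of the label text write RAW 264.4. Each of 6 two-colour arrays held treated and untreated RNA, with treated RNA in Cy5 on 3 arrays (called the Cy5 arrays below) and in Cy3 on 3 arrays (the Cy3 arrays), and the labels number the arrays of each orientation as sets 1 to 3. A cell line is a single lineage, and the labels do not say that the sets were separate cultures, so p-values here measure the spread between sets, which may be technical.

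Each value is a log2 ratio of treated over untreated cells, with the sign turned on the arrays with treated RNA in Cy3. The base of the logarithm is not given in the sources used here and was taken as 2, on which every fold value rests. A ratio of exactly 0 was taken as missing. Such values made up 7.97% to 17.8% of an array, most on the Cy5 array of set 3. A probe was tested when it had a ratio on all 6 arrays. Both orientations of a set were averaged, which cancels a constant dye effect. Limma tested whether the 3 set means differed from 0, with Benjamini-Hochberg adjustment over the 12724 probes tested. A probe with adjusted p under 0.05 is called. Values are the mean ± SD of the 3 set means. All 9 probes of Il1b, Il6, Tnf and Nos2, genes that LPS is known to induce, lay above 0 on all 6 arrays, between 0.39 and 4.32, under this reading of the sign. Ratios of a two-colour array carry no level per sample, so the depth behind a ratio is unknown and whether a marker is present in these cells could not be read. The number of arrays limits the precision.

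Of the 14 receptor probes, 6 had a ratio on all 6 arrays and were tested, 6 had ratios on 4 or 5 arrays, and 2 were at 0 on all 6 arrays. The tested probes covered Ccrl2, Ccr1, Ccr2, Cxcr4 and Cx3cr1. Of the 6, 2 rose (Ccrl2 and Ccr1) and 2 fell (Cxcr4 and Cx3cr1). Over all probes tested, 27.1% were called, 14.8% higher and 12.2% lower. Ccrl2, Ccr1 and Cx3cr1 changed at least 2-fold, as did 3.5% of all probes tested, all of them called. With the probes of a gene averaged, Ccrl2 and Ccr1 rose and Cxcr4 and Cx3cr1 fell. In that fit 26.1% of 9180 genes were called, 14.3% higher and 11.9% lower. An array with no ratio on 1 probe took the other probe alone, so the Cx3cr1 average was probe 17378 alone. With zeros kept as values, Ccrl2 alone rose and Cxcr4 alone fell of the receptors. There 8.64% of all probes were called, 5.55% higher and 3.1% lower. That alternative left the ratios of the tested probes unchanged and brought the probes with zeros into the fit and adjustment. The tested receptor probes had a median log2 ratio of -0.09, against -0.01 over all probes tested. In total RNA from a culture, fewer cells that express a gene and less RNA per cell cannot be told apart.

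**Figure D1:**
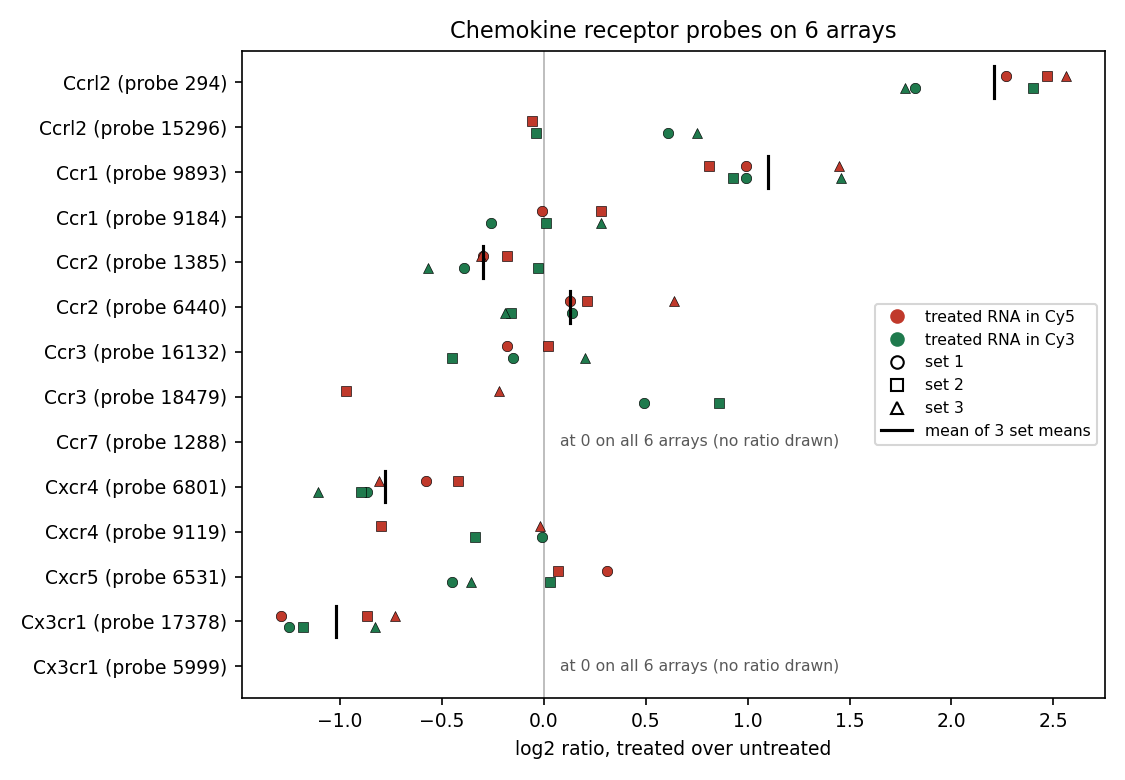
Log2 ratio of treated over untreated cells (horizontal axis) for each receptor probe (rows), with 1 point per array, red for treated RNA in Cy5, green for treated RNA in Cy3 and shapes for the sets; the black bar is the mean of the 3 set means. Ccrl2 probe 294 lies between 1.77 and 2.56 and Cx3cr1 probe 17378 between -1.29 and -0.73, while the second probes of Ccrl2 and Ccr1 lie nearer 0 and that of Cxcr4 spans -0.80 to -0.01.

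Ccrl2 showed the highest ratio of the receptor group. It encodes an atypical receptor that binds the attractant chemerin and presents it to neighbouring cells. Probe 294 read 2.27, 2.47 and 2.56 on the Cy5 arrays (sets 1, 2 and 3) and 1.82, 2.40 and 1.77 on the Cy3 arrays. All 6 arrays were far above 0, and set 2 was the most alike between orientations. The mean was 2.21 ± 0.20 (n = 3), a 4.64-fold rise (limma, adjusted p = 2.06e-06), which placed the probe at rank 102 from the highest of 12724. The other Ccrl2 probe, 15296, had 4 ratios, -0.06 on the Cy5 array of set 2 and 0.61, -0.04 and 0.75 on the Cy3 arrays. It therefore showed no common direction, and it was at 0 on the other 2 arrays. The rise of Ccrl2 thus rests on 1 of its 2 probes.

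Ccr1 also rose. It is a receptor for inflammatory CC chemokines such as Ccl3 and Ccl5 on monocytes and neutrophils. Probe 9893 read 0.99, 0.81 and 1.45 on the Cy5 arrays and 0.99, 0.93 and 1.46 on the Cy3 arrays. The orientations differed little within a set, and set 3 was the highest in both. Its mean was 1.10 ± 0.31 (n = 3), or 2.15-fold (limma, adjusted p = 0.000329). Probe 9184 of Ccr1, with 5 ratios, lay between -0.26 and 0.28, with 3 above and 2 below 0. Averaging both probes lowered the Ccr1 mean to 0.70 (limma over genes, adjusted p = 0.012). With zeros kept as values the adjusted p of probe 9893 was 0.0599 (limma), and it was not called.

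Ccr2, the receptor for Ccl2 that brings monocytes out of the bone marrow, had 2 tested probes, and neither was called. Probe 1385 read -0.30, -0.18 and -0.31 on the Cy5 arrays and -0.39, -0.03 and -0.57 on the Cy3 arrays. All 6 ratios were below 0, and 30.2% of all probes tested had the same sign on all 6 arrays, in either direction. The mean was -0.30 ± 0.17 (n = 3; 95% interval -0.52 to -0.08; limma, adjusted p = 0.053). Its place at the threshold depended on set 2: without that set the mean was -0.39 (adjusted p = 0.0493), without its Cy5 array -0.32 (adjusted p = 0.0355) and without its Cy3 array -0.37 (adjusted p = 0.00861). With the 6 arrays fitted singly, adjusted p was 0.0227 without a set term and 0.0492 with the set as a random block. Probe 6440 read 0.13, 0.21 and 0.64 on the Cy5 arrays and 0.14, -0.16 and -0.19 on the Cy3 arrays, so the sign depended on the orientation in sets 2 and 3. Its mean was 0.13 ± 0.10 (n = 3; 95% interval -0.08 to 0.33; limma, adjusted p = 0.336).

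Ccr3, the eotaxin receptor of eosinophils, had no probe with 6 ratios. Probe 16132 read -0.18 and 0.02 on the Cy5 arrays (sets 1 and 2) and -0.15, -0.45 and 0.20 on the Cy3 arrays. These values lay on both sides of 0. Probe 18479 read -0.97 and -0.22 on the Cy5 arrays (sets 2 and 3) and 0.49 and 0.86 on the Cy3 arrays (sets 1 and 2). Its sign followed the dye orientation. In the fit that accepted 2 complete sets, probe 16132 averaged -0.19 (95% interval -0.44 to 0.07; limma, adjusted p = 0.285).

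Several of these genes lie next to each other. In the RefSeq annotation (GRCm38.p6), Ccr1, Ccr1l1, Ccr3 and Ccr2 are consecutive protein-coding genes on chromosome 9, and 6 of the 8 receptor genes lie on that chromosome. Ccr1l1, a close relative of Ccr1, averaged 0.00 ± 0.26 (n = 3) on its tested probe, 6834, which was not called (limma, adjusted p = 0.984). That probe read 0.14, 0.61 and 0.01 on the Cy5 arrays and -0.44, -0.02 and -0.33 on the Cy3 arrays. The sign followed the dye in every set, so the mean cancelled values of opposite sign. Relatives in this cluster are similar in sequence. The probe sequences were not used here, so a signal shared between relatives was not tested.

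Cxcr4 fell. It is the receptor for Cxcl12 and holds leukocytes in bone marrow and tissue niches. Probe 6801 read -0.58, -0.42 and -0.81 on the Cy5 arrays and -0.87, -0.90 and -1.11 on the Cy3 arrays. All 6 ratios were below 0, and in every set the Cy3 array gave the larger fall. The mean was -0.78 ± 0.16 (n = 3), or 1.72-fold lower in treated cells (limma, adjusted p = 0.000555). Probe 9119 of Cxcr4 had 4 ratios, -0.80 and -0.02 on the Cy5 arrays (sets 2 and 3) and -0.01 and -0.34 on the Cy3 arrays (sets 1 and 2). All 4 were below 0, 2 of them by 0.02 or less.

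Cx3cr1 fell the most of the receptors tested. It binds fractalkine (Cx3cl1) and marks patrolling monocytes and many resident macrophages. Probe 17378 read -1.29, -0.87 and -0.73 on the Cy5 arrays and -1.25, -1.18 and -0.83 on the Cy3 arrays. All 6 ratios were below -0.7, and the fall was largest in set 1 in both orientations. The mean was -1.02 ± 0.24 (n = 3), or 2.03-fold lower in treated cells (limma, adjusted p = 0.00026), which was rank 46 from the lowest of 12724. Ccr1, with a rise of a like size, stood at rank 337 from the highest, so falls of this size were the rarer. The other probe of Cx3cr1, 5999, was at 0 on all 6 arrays. With zeros kept as values the adjusted p of probe 17378 was 0.0517 (limma), and it was not called.

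Neither receptor of lymphoid homing had a probe with 6 ratios. The single probe of Ccr7, which guides mature dendritic cells and T cells to lymph nodes, was at 0 on all 6 arrays and gave no ratio. Cxcr5, the receptor for Cxcl13 that brings B cells into follicles, read 0.31 and 0.07 on the Cy5 arrays (sets 1 and 2) and -0.45, 0.03 and -0.36 on the Cy3 arrays. Its 5 ratios fell on both sides of 0. The fit that accepted 2 complete sets gave Cxcr5 a mean of -0.01 (95% interval -0.27 to 0.25; limma, adjusted p = 0.969).

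The tested receptor probes can be ordered by their mean ratios as Ccrl2, Ccr1, Ccr2 (6440), Ccr2 (1385), Cxcr4 and Cx3cr1. Ccrl2 exceeded Ccr1 by 1.11, and the 6 arrays of these receptors did not overlap. Ccr1 exceeded Ccr2 probe 6440 by 0.98, again with no overlap between arrays. From there on neighbours overlapped across arrays. Cxcr4 and Cx3cr1 differed by 0.24, Cxcr4 was the higher on only 4 of 6 arrays, and their set means overlapped. These differences between ratios of different probes are a description and were not tested.

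**Figure D2:**
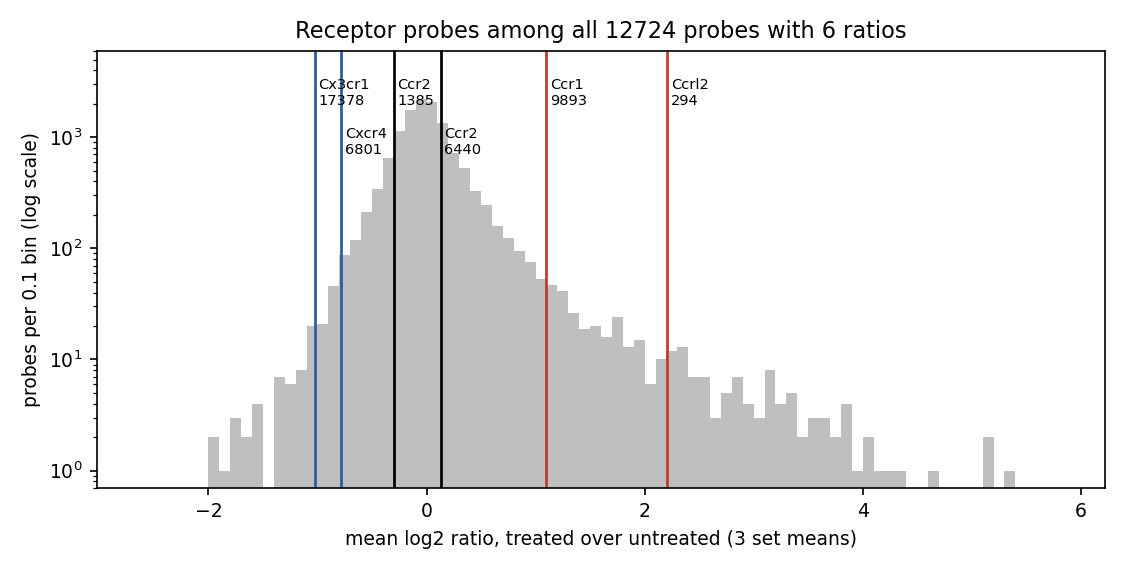
Histogram of the mean log2 ratio of treated over untreated cells (horizontal axis, 3 set means) for the 12724 probes with 6 ratios, as the number of probes per bin on a log scale, with vertical lines at the 6 tested receptor probes (red called higher, blue called lower, black not called). Ccrl2 at 2.21 stands in the upper tail, Cx3cr1 at -1.02 and Cxcr4 at -0.78 stand in the shorter lower tail, and both Ccr2 probes stand in the bulk.

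The dyes can bias a ratio, so each probe was also tested for a shift with the dye, on ratios that had not been turned. None of the 6 tested receptor probes was called for such a shift (limma, adjusted p = 0.125 to 0.776), and 23 of 12724 probes were (0.181%). At an unadjusted p under 0.05 (limma), 2 of the 6 receptor probes and 3348 of the 12724 probes shifted. The lack of a call therefore does not show that a probe was free of a dye shift. The largest dye shifts of the receptor group were 0.22 in Ccrl2, 0.20 in Ccr2 probe 6440 and 0.18 in Cxcr4. Ccrl2 averaged 2.43 on the Cy5 arrays and 1.99 on the Cy3 arrays, and Cxcr4 averaged -0.60 and -0.96. Ccr1 (1.08 and 1.13) and Cx3cr1 (-0.96 and -1.09) were closer between orientations.

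**Figure D3:**
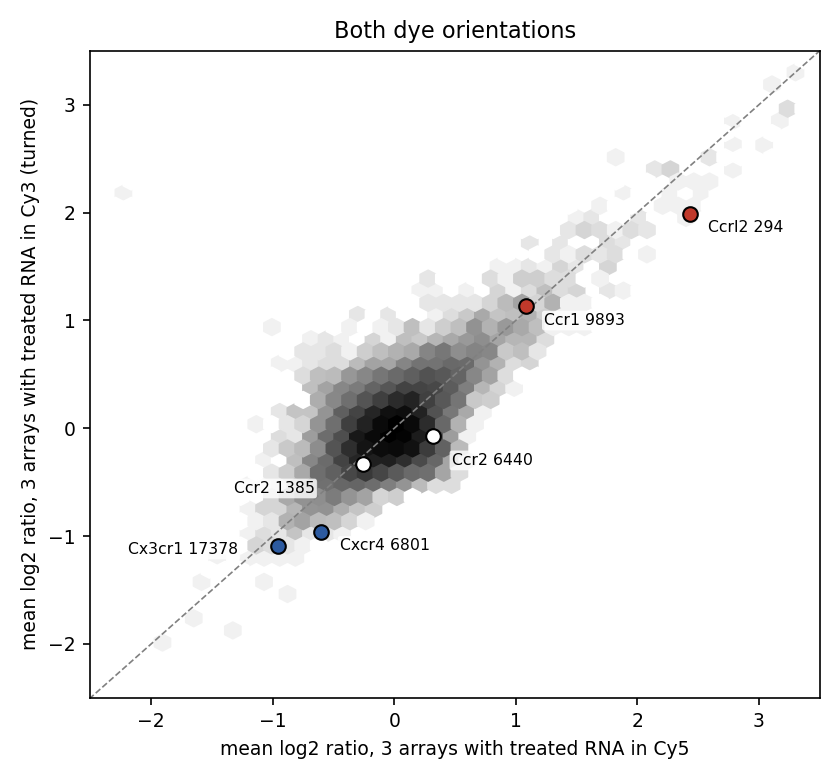
Mean log2 ratio of treated over untreated cells over the 3 Cy5 arrays (horizontal axis) and over the 3 Cy3 arrays, sign turned (vertical axis), in grey for all probes with 6 ratios (darker for more probes, log scale; probes beyond the axes are not drawn) and as circles for the tested receptor probes (red called higher, blue called lower, white not called). Ccr1 and Cx3cr1 lie close to the dashed line of equal ratios, and Ccrl2 and Cxcr4 lie below it.

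The sequence before the transcription start was examined for the 4 receptors that were called, to show what the increased and decreased genes carry there. RefSeq promoter sequences (GRCm38.p6) matched 6 of the 8 genes, and Ccr7 and Cxcr5 had no entry. The 250 bases before the start are given 5′ to 3′ along the gene's strand, and capitals mark a motif found by search. The windows are chr9:111057519-111057768 for Ccrl2 (the most upstream of its 3 starts), chr9:123968693-123968942 for Ccr1, chr1:128592300-128592549 for Cxcr4 and chr9:120068297-120068546 for Cx3cr1, all on the minus strand.
Ccrl2: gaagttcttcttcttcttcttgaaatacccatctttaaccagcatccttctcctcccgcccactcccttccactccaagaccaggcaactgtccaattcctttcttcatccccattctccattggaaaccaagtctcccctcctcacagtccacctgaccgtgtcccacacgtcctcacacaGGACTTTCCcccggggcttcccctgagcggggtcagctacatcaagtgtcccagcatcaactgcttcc
Ccr1: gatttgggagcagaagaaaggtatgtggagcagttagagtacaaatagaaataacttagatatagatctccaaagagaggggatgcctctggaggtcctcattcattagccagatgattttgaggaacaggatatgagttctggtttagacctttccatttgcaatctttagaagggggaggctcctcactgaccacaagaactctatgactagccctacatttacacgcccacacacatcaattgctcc
Cxcr4: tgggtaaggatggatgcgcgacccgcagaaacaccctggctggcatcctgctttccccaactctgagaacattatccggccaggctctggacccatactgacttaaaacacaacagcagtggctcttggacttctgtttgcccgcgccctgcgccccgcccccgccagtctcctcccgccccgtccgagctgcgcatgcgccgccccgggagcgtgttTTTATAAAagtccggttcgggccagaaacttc
Cx3cr1: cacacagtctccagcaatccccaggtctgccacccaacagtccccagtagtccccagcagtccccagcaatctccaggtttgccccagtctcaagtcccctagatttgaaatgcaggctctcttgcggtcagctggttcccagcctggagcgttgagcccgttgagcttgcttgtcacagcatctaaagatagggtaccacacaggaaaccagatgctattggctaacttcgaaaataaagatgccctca

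Motifs were searched on both strands and were picked with these sequences in view. The Ccrl2 window held GGACTTTCC, a core of the site bound by NF-kB, at bases 68 to 60 before the start. Of 32851 promoters, 0.283% held GGACTTTCC in the same window. The windows at the other 2 Ccrl2 starts did not hold it. The Cxcr4 window held TATAAA, the TATA box, at bases 30 to 25 before the start, overlapping a match on the other strand at bases 32 to 27, and 12.4% of promoters held a match. The AP-1 site TGANTCA (6.75% of promoters) was found in the Ccr3 window and in none of the 4 printed. The interferon response element (GAAA, 2 bases of any kind, GAAA; 2.98% of promoters) was in none of the receptor windows. A match describes letters and shows no binding, and a window without a match says nothing of the factor.

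Of the ligands listed for these receptors, Ccl2, Ccl5, Ccl4 and Ccl9 rose. The list had 19 ligands, of which 13 were tested by 20 probes, and 6 probes of 4 ligands were called higher and 0 lower (30% of the probes, against 27.1% of all probes tested). At an unadjusted p under 0.05, 6 were higher and 0 lower. The median of the 20 probes was 0.06, against -0.01 over all. Ccl2, the main ligand of Ccr2, averaged 4.28 ± 0.24 and 3.55 ± 0.08 (n = 3) on its probes, while Ccr2 itself was not called. Ccl5, a ligand of Ccr1 and Ccr3, averaged 3.26 ± 0.28 (9.6-fold) on probe 10752. Its other probe, 9449, read 0.28 and -0.47 on the Cy5 arrays of sets 1 and 2 and 0.46, 0.26 and 0.19 on the Cy3 arrays, so the Ccl5 probes disagreed.

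Ccl4, an inflammatory CC chemokine, averaged 1.76 ± 0.41 and 1.73 ± 0.34 on 2 probes, and the remaining probe was at 0 throughout. Ccl9, a ligand of Ccr1, averaged 1.32 ± 0.16 on probe 15620 and 0.06 ± 0.16 on probe 9056, which was not called. Ccl7, which binds Ccr1, Ccr2 and Ccr3, read 2.10 to 2.56 on 5 arrays with probe 13656 and 3.32 to 3.89 on 4 arrays with probe 18303. Its only probe with 6 ratios averaged -0.09 ± 0.12 and was not called, so the Ccl7 probes disagreed. The single probe of Ccl3 was at 0 on all 6 arrays. Ccl4 probe 10714 was not called with zeros kept as values (limma, adjusted p = 0.0502), and both probes of Ccl2 and the other called ligand probes were.

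The lowest tested ligand probes were those of the eosinophil attractants Ccl11 (-0.21 ± 0.20) and Ccl24 (-0.15 ± 0.29), and neither was called. Untested Ccl19 probe 15297, picked out after its values were seen, was lower on all 4 of its arrays. It read -0.77 and -0.73 on the Cy5 arrays of sets 2 and 3 and -0.45 and -0.61 on the Cy3 arrays of sets 1 and 2. Tested Ccl19 probe 12841 averaged 0.01 ± 0.25, so the Ccl19 probes disagreed. For the receptors that fell, the ligand Cx3cl1 averaged -0.05 ± 0.15 on its tested probe and was not called, and its other probe, 11444, read 0.41 and 0.19 on 2 Cy5 arrays and -0.30 and -0.80 on 2 Cy3 arrays. Cxcl12 had no probe with 6 ratios, and its probes disagreed, with 4 ratios from 0.25 to 1.47 on probe 12177 and 5 from -0.46 to 0.12 on probe 14082. Cxcl13, the ligand of Cxcr5, was picked out after its values were seen. Its probe 10504 read -1.19, -0.91 and -1.51 on the Cy5 arrays and 1.60, 0.76 and 1.80 on the Cy3 arrays. The sign followed the dye in every set, and the mean of 0.09 ± 0.15 (n = 3; limma, adjusted p = 0.524) cancelled values that were large on each array.

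Genes of receptor signalling and its termination moved both ways. Of 28 listed genes measured by 40 tested probes, 13 probes were called higher and 7 lower, 50% of the probes against 27.1% of all, with a median of 0.04. Some genes had several called probes, so the higher ones covered 8 genes and the lower ones 6, with Rgs3 in both. The largest increases were of RGS proteins, which speed the hydrolysis of GTP on G proteins. Rgs1 averaged 3.30 ± 0.44 and 3.14 ± 0.30 (n = 3) on its probes. Rgs16 averaged 2.24 ± 0.90, 2.22 ± 0.71 and 1.96 ± 0.71 on 3 probes, with set 3 the highest on each. Rgs2 rose by 0.52 ± 0.17 on probe 17606, and the 5 ratios of its probe 10751 followed the dye (-0.46 and -0.91 in Cy5, 0.43, 0.94 and 0.44 in Cy3). Rgs10 fell by 0.51 ± 0.22 and Rgs19 fell by 0.38 ± 0.13. Rgs3 had called probes in both directions, at 0.81 ± 0.22, 0.75 ± 0.00 and -0.28 ± 0.07. The small SD of Rgs3 probe 15410 is that of set means, and its arrays read 0.50, 0.09 and 0.45 in Cy5 and 1.01, 1.41 and 1.06 in Cy3.

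Grk6, a kinase that phosphorylates activated receptors, fell by 0.64 ± 0.26 and by 0.40 ± 0.12 on its called probes. Dock2, an activator of Rac in leukocyte migration, fell by 0.42 ± 0.02. The GTPase Rac2 rose by 0.42 ± 0.04 and its activator Vav1 rose by 0.53 ± 0.08 and 0.52 ± 0.14 on its probes. The G protein subunits Gng5 (0.32 ± 0.08) and Gng10 (0.29 ± 0.12) were called higher, and the PI3-kinase subunit Pik3cg was called lower on 1 of 2 probes (-0.31 ± 0.14). Several small changes were not called when 1 set was left out. Gng5, Gng10 and Rgs3 probe 11226 lost the call without any 1 of the sets (limma, adjusted p = 0.0501 to 0.195). Grk6 probe 6990, Rgs19 and Pik3cg lost it without set 1 or without set 2 (adjusted p = 0.0622 to 0.214), and Pik3cg also without the Cy3 array of set 1 (adjusted p = 0.0581). Keeping zeros as values left Rgs1, Rac2, Dock2, Rgs3 probe 15410 and Vav1 probe 11514 called, and the other probes named here were not (limma, adjusted p = 0.0553 to 0.112). Averaged per gene, Rgs2 (0.35, adjusted p = 0.0607) and Pik3cg (-0.24, adjusted p = 0.0923) were not called.

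**Figure D4:**
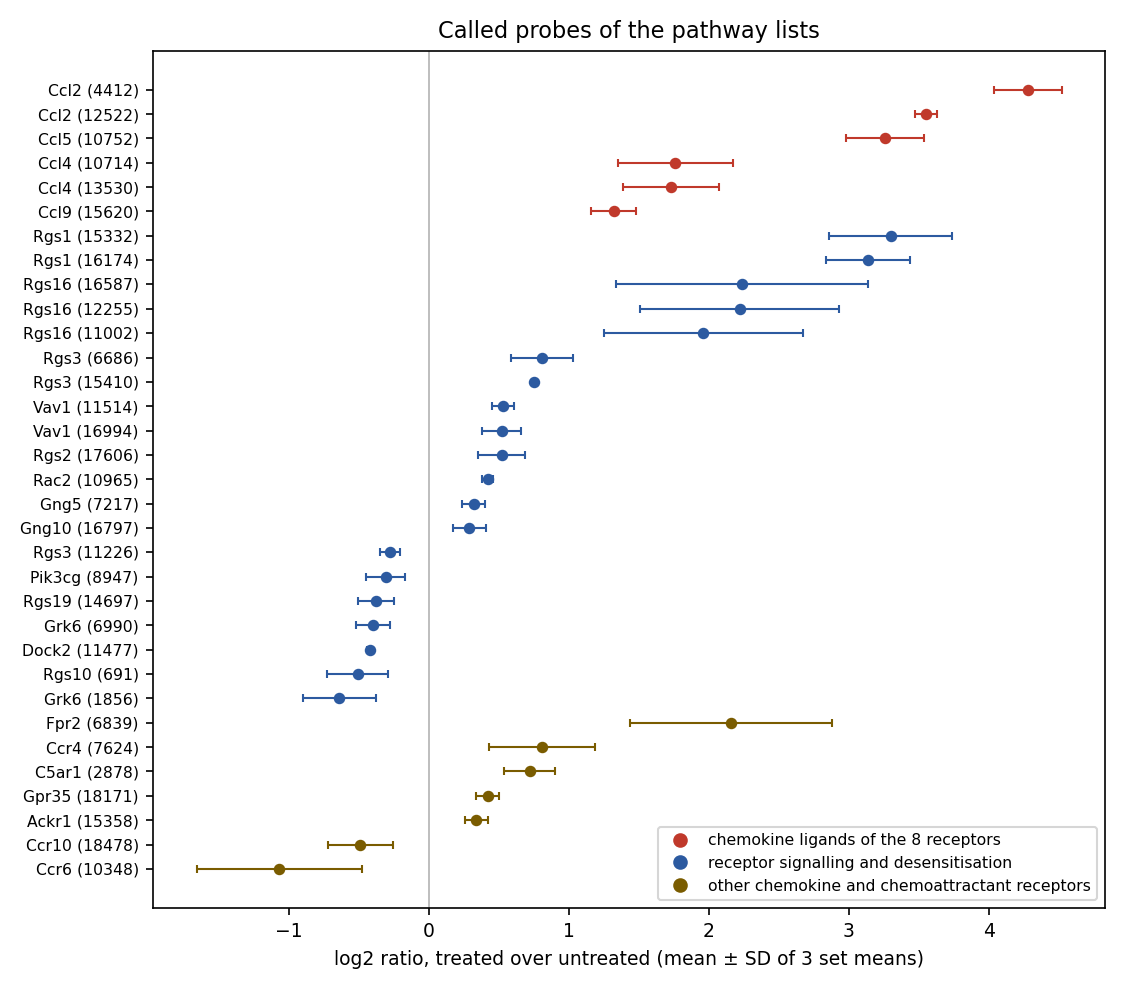
Mean log2 ratio of treated over untreated cells (horizontal axis; bars are the SD of 3 set means) for every called probe (rows) of the lists of chemokine ligands (red), receptor signalling and desensitisation (blue) and other chemokine and chemoattractant receptors (brown). Both probes of Ccl2 and of Rgs1 lie above 3, and the lowest value is that of Ccr6 at -1.07.

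Among 17 other chemokine and chemoattractant receptor genes, tested by 27 probes, 5 probes were called higher and 2 lower (25.9%, near the 27.1% of all probes tested), with a median of -0.01. The formyl peptide receptor Fpr2, which senses bacterial peptides, rose by 2.16 ± 0.72 (n = 3), a rise close in size to that of Ccrl2. Ccr4 rose by 0.81 ± 0.38 on its only tested probe, 7624. Its other probe, 12561, read 0.06 and -0.30 on the Cy5 arrays of sets 1 and 2 and -0.08, -0.45 and -0.39 on the Cy3 arrays, so the Ccr4 probes disagreed. The complement receptor C5ar1 rose by 0.72 ± 0.18 and Gpr35 rose by 0.42 ± 0.08, each on 1 of 2 tested probes. Both SDs are those of set means, and the orientations differed. C5ar1 averaged 0.42 on the Cy5 arrays, with a lowest array of -0.04, and 1.02 on the Cy3 arrays. Gpr35 averaged 0.14 and 0.71. Neither was called for a dye shift (limma, adjusted p = 0.186 and 0.118). The atypical receptor Ackr1 was called at 0.34 ± 0.08, but not without set 1 or set 2 (limma, adjusted p = 0.115 and 0.0678), and the 4 ratios of its other probe, 5790, lay between -0.61 and 0.65. Ccr6, which guides lymphocytes and dendritic cells to epithelia, fell by 1.07 ± 0.59, a fall of the size of that of Cx3cr1 with a wider spread, from -0.61 in set 2 to -1.74 in set 3. The 5 ratios of Ccr6 probe 11152 were also below 0, between -1.45 and -0.68. Ccr10 fell by 0.49 ± 0.23 on 1 of 3 tested probes, and was not called without set 2 (limma, adjusted p = 0.071). Gpr35 was called with zeros kept as values, and the other 6 were not (limma, adjusted p = 0.0548 to 0.145). Averaged per gene, Ackr1, Gpr35 and Ccr10 were not called (limma, adjusted p = 0.0647, 0.153 and 0.258).

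Over the 6 arrays, the probes most like Ccrl2 probe 294 among 11053 probes of other named genes were those of Lgals9 (root mean square difference 0.21), Hdc (0.25) and Nupr1 (0.25). Their means were 2.33, 2.27 and 2.24. The probes most like Cx3cr1 probe 17378 were those of Mki67 (0.14), G3bp1 (0.14) and Rnf112 (0.16), with means of -1.01, -0.93 and -1.08.

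Markers of cell types that carry these receptors were read in the same arrays. The counts below stand against the 27.1% of all probes tested that were called. Of the macrophage markers, 2 of 6 tested probes were higher (Fcgr1 by 1.96 ± 0.15 and Adgre1 by 0.94 ± 0.09) and 1 lower (Csf1r, by 0.53 ± 0.22), and Cd68 (0.02), Spi1 (0.03) and Mertk (0.05) were not called. Of the T cell markers, 0 of 7 tested probes were called (limma; 1 at an unadjusted p under 0.05), and their means ranged from -0.25 to 0.09. Untested Cd8a probe 18482 lay below 0 on its 5 arrays, between -1.87 and -0.15, while tested Cd8a probe 112 averaged 0.06. Untested Cd4 probes 9088 and 12969 lay on both sides of 0. Of the neutrophil markers, 0 of 11 tested probes were called (limma; 2 at an unadjusted p under 0.05), and their means ranged from -0.28 to 0.26. Untested Camp probe 17253 lay below 0 on its 5 arrays, between -0.61 and -0.04. Of the eosinophil, basophil and mast cell markers, 0 of 7 tested probes were called (limma; 0 at an unadjusted p under 0.05), and their means ranged from -0.23 to 0.13. B cell markers had 1 of 6 tested probes higher (16.7%), that of Cd79a at 0.63 ± 0.11, and the means of the tested probes ranged from -0.08 to 0.63. Untested Blnk probe 18544 lay above 0 on its 5 arrays, the lowest at 0.78, so each array exceeded the Cd79a mean. Tested Blnk probe 12155 averaged 0.05, so the Blnk probes disagreed. Dendritic cell markers had 2 of 8 higher (25%), with means from -0.24 (Itgax) to 2.53. These were Ccl22 probe 12207 at 2.53 ± 0.11 and Fscn1 probe 992 at 0.63 ± 0.33. The other tested probes of Ccl22 (0.24) and Fscn1 (-0.03) were not called. Untested Ccl22 probe 10410 lay between 1.58 and 1.79 on its 5 arrays, and the untested probes of Flt3 and Xcr1 lay on both sides of 0. Fibroblast markers had 2 of 6 higher (33.3%), Dcn at 2.68 ± 0.95 and Lum at 1.92 ± 0.35. The collagen genes Col1a1 (0.01), Col1a2 (0.07) and Col3a1 (-0.21), and Pdgfra (-0.15), were not called. The part of these markers in the receptor results was not tested.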

How the data were processed

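Total RNA of treated and untreated RAW 264.7 cells was labelled with Cy5 or Cy3 and compared within each of 6 arrays, per the labels. The authors deposited 1 log2 ratio per probe and array (base assumed), read here as Cy5 over Cy3. The labels put treated RNA in Cy5 on 3 arrays and in Cy3 on 3, so neither dye marked untreated RNA throughout. Under this reading all 9 probes of Il1b, Il6, Tnf and Nos2 lay above 0 on all 6 arrays. How spots were scanned, filtered and normalized before deposit is not given in the sources used here. Each array had a median of 0 as deposited. Across probes, r was 0.672 to 0.773 between arrays of like orientation and -0.66 to -0.414 between the others, which shows that the sign was left as scanned. All sample columns were mapped.

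Of 16281 probes, 13738 had 1 symbol in the platform annotation, 52 several and 2491 none. All 14 receptor probes kept their symbol in RefSeq by gene ID. Exact zeros were missing, including 1011 probes at 0 on all arrays. Set means of both orientations were tested against 0 (limma 3.58.1, R 4.3.3, intercept-only lmFit, then eBayes, two-sided, Benjamini-Hochberg). The fit was tested on simulated ratios. The text names all receptor probes, and the called probes and the 2 highest and 2 lowest of each pathway list. It names Il1b, Il6, Tnf and Nos2 as a check of direction, and the 3 most alike probes for the highest and lowest called receptor. Called markers are named, with some that were not called or not tested, the untested ones picked after their values were seen. Receptors and lists were chosen with earlier results of these data known. Alternatives kept zeros, accepted 2 complete sets, averaged probes per gene, fitted single arrays with and without a set block, changed the centring, scaling or prior, or left out a set or an array.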

Additional observations from a re-analysis of the deposited data

Results flagged for a closer look

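The ratio of Cxcl13 probe 10504 differed between the dye orientations, with treated over untreated below 0 on all 3 Cy5 arrays and above 0 on all 3 Cy3 arrays. Its dye shift was -1.30, which was not called over all probes (limma, adjusted p = 0.0977). On the other Cxcl13 probe, 14212, the Cy3 array of set 2 read -0.37 and stood apart from the other 5, the nearest of which read -0.09. Among 49 probes examined, this was the only array that stood apart by Dixon's criterion, which chance meets in about 1 of 20 groups. No array did so on the receptor probes with 4 or more ratios, and Ccr7, with none, could not be examined.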

How the results depend on the processing

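With zeros kept as values, 903 probes were called higher and 504 lower, in place of 1887 and 1556, and 1 receptor probe rose and 1 fell (Ccrl2, adjusted p = 0.0265, and Cxcr4, adjusted p = 0.045). Leaving out the 1011 probes at 0 on all arrays, an alternative chosen after seeing the data, gave 1778 and 1375 with zeros kept, and again 2 receptor probes in each direction. Over 18 alternatives, Ccrl2 (1.62 to 2.30) and Cxcr4 (-0.84 to -0.63) were called in all, Ccr1 (0.70 to 1.22) and Cx3cr1 (-1.15 to -0.90) in 17, and Ccr2 probe 1385 in 5. Leaving out a set or an array, limma called 1358 to 2191 probes higher and 833 to 1809 lower, the fewest without set 2, and 2 receptor probes higher and 2 to 3 lower. Ccr2 probe 6440 changed sign when averaged with the other (-0.09), as did Rgs3 probe 11226 (0.29) and Cxcl13 probe 14212 (0.01), and Cxcl13 probe 10504 did without the Cy3 array of set 3 (-0.01, with up to 0.25 without another array). The deviations of arrays with the same set number correlated at 0.528, 0.0773 and 0.167 (sets 1 to 3; consensus correlation 0.349). Set 2 was under 0.1, so these correlations do not establish that the numbers pair the arrays. The main test still averaged arrays by set number, so its set means, SD and p-values rest on that pairing. With the set as a random replicate block, 1885 probes rose and 1520 fell, and with no block 2242 and 2051, with 3 receptor probes lower in each. Of 666 values of the 37 other named probes under the alternatives, 613 kept direction and call and 50 lost the call, 21 of these with zeros kept. Signal over background was not analysed here, so dim spots could not be told from bright ones with ratios near 0.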
